A study of Mus musculus with 9 samples.

Results

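The effect of gravity during spaceflight on the liver was examined in mice that flew together, by comparing the livers of 3 mice under microgravity (MG mice) with those of 3 mice under artificial earth gravity of 1 g in a centrifuge (A1G mice). These are 6 of the 9 libraries of the series, taken by their group labels, and all genes of the count table entered the comparison. All mice were wild-type (WT) C57BL/6J males bought at 5 weeks of age, and both flown groups were caged in space for about 30 days, ate the same diet, came back to Earth alive and were dissected after splashdown. Both groups went through the hypergravity of launch and landing, and the centrifuge acted only aboard the station, so the A1G group was not under 1 g for the whole flight. The CO2 concentration was somewhat higher for MG than for A1G mice, so gravity and CO2 cannot be told apart here. The remaining 3 libraries are from ground control mice (GC mice), kept months later at another site, and serve here to estimate the spread between mice and to give a ground level.

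The liver turns surplus carbohydrate into fatty acids and triglycerides, makes cholesterol, and in fasting releases glucose instead. The enzymes of fatty acid synthesis are driven mainly by SREBP-1c and ChREBP and those of cholesterol synthesis by SREBP-2, while glucocorticoids and fasting raise genes of gluconeogenesis. The liver also makes S-adenosylmethionine from methionine, passes its sulfur to cysteine and glutathione, and uses glutathione S-transferases, many of them targets of the oxidative stress factor NRF2, to clear reactive compounds. Many of its detoxifying enzymes differ between male and female mice, a pattern set by the rhythm of growth hormone.

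The start regions of 4 of the genes that differed between MG and A1G are shown because they are genes of lipid metabolism that differed in both directions. Each is the 300 bases from 250 before to 50 after a start site, from RefSeq on GRCm38.p6, read along the gene's own strand. Capitals mark matches, on either strand, to the short motifs named after the sequences.
Lpin1, chr12:16610917-16611216, minus strand: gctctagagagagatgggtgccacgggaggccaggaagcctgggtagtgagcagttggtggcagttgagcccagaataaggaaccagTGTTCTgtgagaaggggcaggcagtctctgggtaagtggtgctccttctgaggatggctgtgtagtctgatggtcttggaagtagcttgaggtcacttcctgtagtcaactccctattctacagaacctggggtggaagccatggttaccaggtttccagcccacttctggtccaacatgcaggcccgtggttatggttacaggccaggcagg
Idi1, chr13:8885356-8885655, plus strand: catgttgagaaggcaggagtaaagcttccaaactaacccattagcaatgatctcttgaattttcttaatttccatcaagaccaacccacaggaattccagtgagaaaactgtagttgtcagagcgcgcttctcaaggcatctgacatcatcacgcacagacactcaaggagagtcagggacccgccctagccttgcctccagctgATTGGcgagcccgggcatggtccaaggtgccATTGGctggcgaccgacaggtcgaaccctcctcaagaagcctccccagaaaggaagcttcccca
Acacb, chr5:114165268-114165567, plus strand: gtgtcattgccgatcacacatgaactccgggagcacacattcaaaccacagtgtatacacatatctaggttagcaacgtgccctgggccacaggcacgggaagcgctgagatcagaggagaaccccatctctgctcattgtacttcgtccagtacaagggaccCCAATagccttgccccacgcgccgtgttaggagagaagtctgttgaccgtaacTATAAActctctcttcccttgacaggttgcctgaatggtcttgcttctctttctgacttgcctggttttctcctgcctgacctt
Me1, chr9:86695865-86696164, minus strand: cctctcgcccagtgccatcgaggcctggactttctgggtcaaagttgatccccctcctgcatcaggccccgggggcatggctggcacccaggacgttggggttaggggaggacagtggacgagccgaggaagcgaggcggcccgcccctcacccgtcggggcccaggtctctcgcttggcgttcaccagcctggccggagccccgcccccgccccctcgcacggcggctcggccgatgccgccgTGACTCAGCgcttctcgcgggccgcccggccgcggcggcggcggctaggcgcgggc
The capitals in *Lpin1* are a glucocorticoid half-site (AGAACA, here on the opposite strand), those in *Idi1* are 2 CCAAT boxes (CCAAT, on the opposite strand), those in *Acacb* are a CCAAT box and a TATA box (TATAAA), and those in *Me1* are an antioxidant response element (TGACNNNGC). The *Acacb* window lies within the annotated gene, at a start downstream of its first one. The E-box (CACGTG), the cAMP response element (TGACGTCA), the FOXO motif (TGTTTAC) and the sterol response element (TCACCCCAC) were also searched, and none of their letters occur in these 4 windows. Of 32851 RefSeq windows in the mouse, 19.0% hold the glucocorticoid half-site, 37.4% the CCAAT box, 13.6% the TATA box, 12.4% the antioxidant response element, 7.15% the E-box, 3.65% the FOXO motif, 1.79% the cAMP response element and 0.551% the sterol response element. Of the 25 measured genes of cholesterol synthesis and uptake, 17 had a window, and 16 of their 20 windows hold a CCAAT box, against 16 of 28 windows in 21 genes of fatty acid and triglyceride synthesis. A match is a description of the letters and was not tested for function.

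The 6 libraries held between 13189515 and 23738049 estimated counts. Hepatocyte markers led every one of them, with a summed level between 94510 and 109400 counts per 1000000 (CPM, scaled by TMM), as the tissue label says, whereas 11 of 15 pancreatic markers had no count in any flown library. A1G replicate 1 stood apart from its group by chi-square, and less so by correlation. Counts compared pairwise gave a mean chi-square over genes of 82.1 and 82.5 between it and the other A1G mice, and 17.2 between those. The chi-square was 18.9 to 28.0 among MG mice and 23.9 to 64.5 among GC mice, where counting error by itself would give 1. The correlation r of log2 CPM was 0.9732 and 0.9753 between A1G replicate 1 and the other A1G mice. It was 0.9808 between those and 0.9737 to 0.9778 among MG mice. Named genes whose call changed without A1G replicate 1 are given both ways. On the first principal component of the flown libraries, with 27.7% of the variance, the A1G mice all lay on 1 side and the MG mice on the other.

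Few genes passed the test, among them enzymes of lipid metabolism (*Lpin1*, *Idi1*, *Acacb* and *Me1*) and the prolactin receptor gene *Prlr*. Of 13193 genes tested with edgeR's quasi-likelihood test on all 9 libraries, 10 had an adjusted p under 0.05, which is 0.0758% (7 higher in MG, 0.0531%, and 3 lower, 0.0227%). These are said below to have risen or fallen, and no other gene is. At an unadjusted p under 0.05, called nominally higher or lower from here on, there were 576 genes higher (4.37%) and 608 lower (4.61%), and the CPM of the 3 MG mice all lay above those of the 3 A1G mice for 7.62% of genes and all below for 7.8%. DESeq2 on the 6 flown libraries called 92 genes higher (0.697%) and 80 lower (0.606%), all 10 genes of edgeR among them, and the share of higher calls was 53.5%, against 70% with edgeR. With edgeR on the 6 flown libraries alone no gene was called (1189 by unadjusted p). When A1G replicate 1 was left out there were 48 calls, against 17 when MG replicate 3 and 13 when GC replicate 3 was dropped. Dropping any other library gave 0 edgeR calls (954 to 1222 genes by unadjusted p). The 10 genes kept their direction in every one of these fits and all passed without A1G replicate 1.

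**Figure D1:**
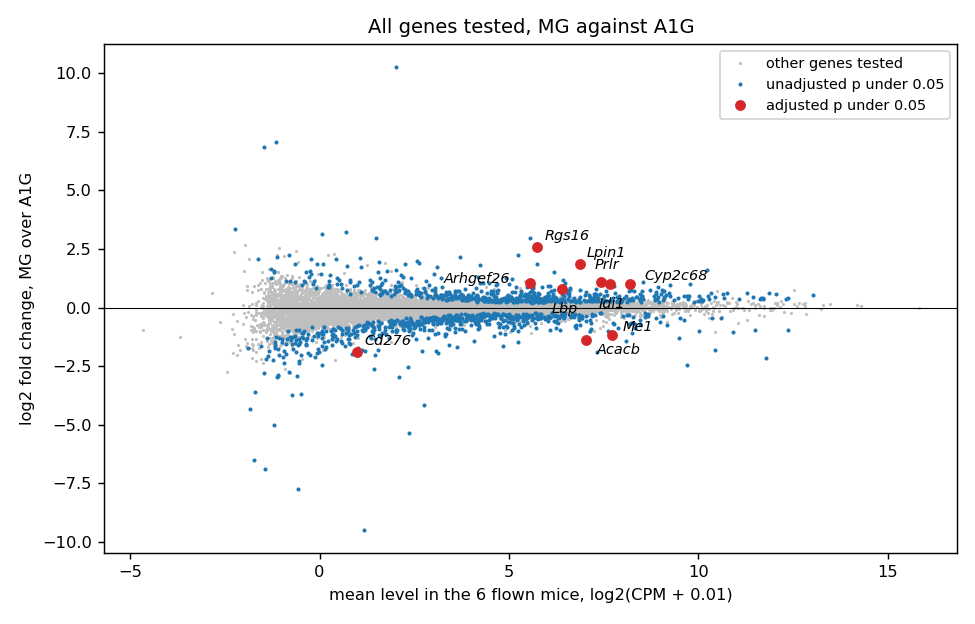
Log2 fold change of MG over A1G (y axis) against the mean level in the 6 flown mice on a log2 CPM scale (x axis) for the 13193 genes tested, with genes of an unadjusted p under 0.05 in blue and the 10 genes of an adjusted p under 0.05 in red. The red points lie between log2 fold changes of -1.91 (*Cd276*) and 2.59 (*Rgs16*), and *Cd276* is the one with the lowest level.

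*Lpin1* encodes lipin 1, a phosphatidate phosphatase of triglyceride synthesis that also acts with PPAR-alpha to turn on fatty acid oxidation, and is a gene of fasting and glucocorticoids (chr12:16535669-16610966 of GRCm38.p6 in the GENCODE M21 annotation, like all gene positions here). It measured 35.4, 54.9 and 62.6 CPM in A1G replicates 1 to 3 and 209.5, 176 and 162 CPM in MG replicates 1 to 3. The groups were far apart, and the lowest MG mouse had more than any A1G mouse. *Lpin1* rose by 1.84 ± 0.23 on the log2 scale (± SE, n = 3 mice per group, 3.58-fold, adjusted p = 0.0402, edgeR).

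*Rgs16* encodes a regulator that shortens the signal of G protein-coupled receptors and follows feeding and fasting in the liver (chr1:153740349-153745468). Its level was 17.6, 14.5 and 13.8 CPM in A1G mice and 76.8, 58.8 and 142 in MG mice. MG replicate 3 was the highest, and the A1G mice lay close together. *Rgs16* rose by 2.59 ± 0.38 (6.03-fold, adjusted p = 0.0413), and without MG replicate 3 its log2 fold change was 2.14.

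*Prlr*, the prolactin receptor, is a gene of the female mouse liver (chr15:10177238-10349180). It stood at 139, 92.2 and 101 CPM in A1G and 247, 217 and 250.1 CPM in MG mice, so that A1G replicate 1 was nearest to the MG group. It rose by 1.10 ± 0.15 (2.15-fold, adjusted p = 0.0402). *Cyp2c68*, a cytochrome P450 of the cluster on chromosome 19 (chr19:39688834-39741054), went with it, from 215, 164 and 206 CPM to 357, 424 and 401 CPM. The MG mice were all well above the highest A1G mouse, and *Cyp2c68* rose by 1.02 ± 0.15 (adjusted p = 0.0413). Close copies of *Cyp2c* genes share sequence, so reads can be split among them.

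*Idi1* encodes isopentenyl diphosphate isomerase, an early step from mevalonate to cholesterol (chr13:8885501-8892451). It measured 122, 154 and 129.9 CPM in A1G and 281, 237 and 294 CPM in MG mice, and rose by 1.00 ± 0.14 (2.00-fold, adjusted p = 0.0402). *Lbp*, the lipopolysaccharide-binding protein of plasma (chr2:158306493-158332852), measured 68.4, 60.3 and 58.6 CPM in A1G and 106, 96.1 and 119 CPM in MG mice. Each MG mouse was above each A1G mouse for both genes. *Lbp* rose by 0.78 ± 0.11 (adjusted p = 0.0413). *Arhgef26*, an exchange factor for the small GTPase RhoG (chr3:62338344-62462221), rose by 1.06 ± 0.16 (adjusted p = 0.0423), from 31.8, 24.8 and 35.6 CPM to 74.6, 63.0 and 55.1 CPM.

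The 3 genes that fell include both an enzyme of malonyl-CoA and one that makes NADPH for fat synthesis. *Acacb* encodes the mitochondrial acetyl-CoA carboxylase, whose malonyl-CoA holds back fatty acid oxidation (chr5:114146535-114250761). It measured 169.6, 228 and 171 CPM in A1G mice and 70.1, 62.4 and 87.6 CPM in MG mice. The MG mice were all well below the A1G mice, and *Acacb* had a log2 fold change of -1.37 ± 0.19 (2.59-fold lower, adjusted p = 0.0402). *Me1*, the cytosolic malic enzyme (chr9:86581371-86695953), measured 375, 224 and 274 CPM in A1G and 118, 123 and 151 CPM in MG mice. A1G replicate 1 was the highest of the flown mice, and without it the log2 fold change of -1.16 ± 0.18 (2.23-fold lower, adjusted p = 0.0423) was -0.93 (adjusted p = 0.0222). *Cd276*, an immune checkpoint protein (chr9:58524298-58555437), measured 3.41, 2.91 and 3.04 CPM in A1G and 0.866, 0.686 and 0.953 CPM in MG mice. This level is low, with 13 to 15 counts in each MG library, and the log2 fold change was -1.91 ± 0.29 (adjusted p = 0.0423). The deposited TPM showed no such difference, at 3.00, 1.05 and 1.16 in A1G and 2.86, 2.35 and 0.356 in MG mice, and limma on log2(TPM + 1) gave an adjusted p of 1, so the fall of *Cd276* holds for the counts only.

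**Figure D2:**
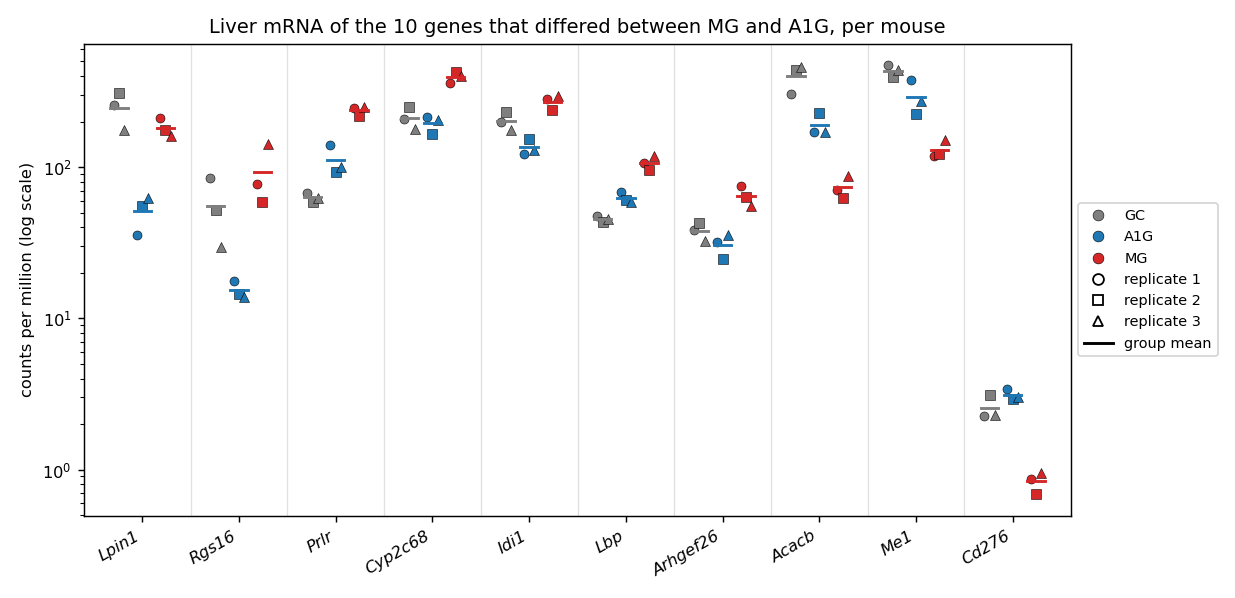
CPM on a log axis for the 10 genes called in MG vs. A1G, with 1 point per mouse (marker shape gives the replicate number, colour the group) and a line at each group mean. MG and A1G points do not overlap for any of the genes, and for *Lpin1* and *Rgs16* the A1G mice are the low group, with GC mice nearer to MG.

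The ground level differed from gene to gene. *Lpin1* measured 257, 309.8 and 175 CPM in GC mice, so that A1G was the low group, at a log2 fold change of -2.28 ± 0.24 in A1G vs. GC (adjusted p = 0.00481) and -0.44 ± 0.23 in MG vs. GC (adjusted p = 0.331). For *Rgs16* the A1G vs. GC value was -1.85 ± 0.37 (adjusted p = 0.0508) and the MG vs. GC value 0.74 ± 0.35 (adjusted p = 0.292). Both were thus lowest in A1G mice, with GC and MG mice closer to each other for *Lpin1*. *Idi1* also had its lowest mean in A1G mice, with 199, 231 and 176 CPM in GC mice, though neither comparison with GC passed (adjusted p = 0.0981 and 0.122). For *Me1* the levels descended from GC through A1G to MG, with 470.0, 395 and 440.2 CPM in GC mice and a log2 fold change of -1.74 ± 0.18 in MG vs. GC (adjusted p = 0.000506) against -0.58 ± 0.17 in A1G vs. GC (adjusted p = 0.172). In *Me1* the ground mice were thus highest. *Prlr* and *Acacb* passed in A1G vs. GC too, in the same direction as in MG vs. A1G. Their log2 fold changes were 0.81 ± 0.15 and -1.08 ± 0.18 (adjusted p = 0.0385 and 0.0336). In MG vs. GC they were 1.92 ± 0.15 and -2.45 ± 0.19 (adjusted p = 0.000127 for both). *Lbp* had 0.45 ± 0.11 in A1G vs. GC (adjusted p = 0.109) and 1.23 ± 0.11 in MG vs. GC (adjusted p = 0.000388). *Cyp2c68*, *Arhgef26* and *Cd276* did not pass in A1G vs. GC (log2 fold changes of -0.12 ± 0.15, -0.29 ± 0.16 and 0.29 ± 0.26, with adjusted p of 0.758, 0.438 and 0.653) and passed in MG vs. GC (0.89 ± 0.15, 0.77 ± 0.16 and -1.62 ± 0.29, adjusted p = 0.00768, 0.0239 and 0.0109). These comparisons share libraries with MG vs. A1G, and of all genes 3.33% passed when MG and 0.644% when A1G was set against GC.

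Genes of fatty acid and triglyceride synthesis were mostly lower in MG than in A1G mice. This list and all those below were written with earlier results of these data known, so their directions are not independent evidence. Of 26 measured, 2 fell (*Acacb*, whose malonyl-CoA holds back oxidation, and *Me1*) and 1 rose (*Lpin1*). In the list 16 were nominally lower and 2 nominally higher, and for 13 the MG mice all lay below the A1G mice. DESeq2 called 11 lower and 2 higher. The median log2 fold change was -0.68, against -0.01 over all genes tested, and -0.68 without A1G replicate 1.

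Several enzymes of the pathway were just short of the threshold. *Scd1*, the stearoyl-CoA desaturase, measured 3931, 8298 and 5021 CPM in A1G and 538, 1946 and 1385 CPM in MG mice, a log2 fold change of -2.16 ± 0.40 (adjusted p = 0.0648). *Fasn*, the fatty acid synthase, measured 750.4, 840.3 and 598 CPM in A1G and 436, 436 and 434 in MG mice (-0.75 ± 0.13, adjusted p = 0.0648). For both, every MG mouse was below every A1G mouse in CPM, and the 3 MG values of *Fasn* were almost alike. In the deposited TPM the groups overlapped for *Fasn*, with 187, 223 and 124 in A1G and 108, 119 and 132 in MG mice. Limma on log2(TPM + 1) without a filter gave *Fasn* an adjusted p of 0.786. *Acss2*, which makes acetyl-CoA from acetate, had -0.75 ± 0.14 and *Fads2*, a desaturase of polyunsaturated fatty acids, -0.69 ± 0.13 (adjusted p = 0.0648 and 0.0648). Without A1G replicate 1 *Scd1*, *Acss2* and *Fads2* passed, with adjusted p of 0.0304, 0.0306 and 0.0218, and *Fasn* had 0.0589. GC mice were higher than both flown groups in all 4 genes, with 12362, 15938 and 15424 CPM for *Scd1* and 1769, 1575 and 1623 CPM for *Fasn*.

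The NADPH that fat synthesis needs comes from malic enzyme and the pentose phosphate pathway. Of 13 measured genes of that pathway and of NADPH supply, *Me1* fell, 4 were nominally lower and 0 nominally higher, and DESeq2 called 3 lower. The median of the list was -0.06. *Pgd*, the 6-phosphogluconate dehydrogenase, measured 53.3, 37.3 and 47.5 CPM in A1G and 21.1, 23.1 and 30.4 CPM in MG mice (-0.89 ± 0.16, adjusted p = 0.0648). *Tkt*, the transketolase, measured 171, 124 and 114 CPM in A1G and 85.5, 79.3 and 72.7 CPM in MG mice (-0.78 ± 0.16, adjusted p = 0.0887). In both the groups did not overlap, with A1G replicate 1 the highest of the flown mice.

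Genes of cholesterol synthesis leaned the other way. Of 25 measured genes of cholesterol synthesis and uptake, *Idi1* rose, 12 were nominally higher and 1 nominally lower, DESeq2 called 6 higher and 0 lower, and the median log2 fold change was 0.28 (0.28 without A1G replicate 1). *Cyp51*, the lanosterol demethylase, measured 113, 125 and 128 CPM in A1G and 191, 162 and 199.9 CPM in MG mice (0.59 ± 0.11, adjusted p = 0.0649). Each MG mouse was above each A1G mouse. *Msmo1*, a sterol oxidase, had 1.06 ± 0.26 (adjusted p = 0.174), *Mvd*, the mevalonate diphosphate decarboxylase, 0.77 ± 0.22 (adjusted p = 0.251) and *Nsdhl*, a sterol dehydrogenase, 0.53 ± 0.15 (adjusted p = 0.239). Averaged over the list and set relative to the A1G mean, log2 CPM was -0.17, 0.19 and -0.02 in A1G, 0.38, 0.08 and 0.45 in MG and 0.66, 0.60 and 0.49 in GC mice. The flown groups overlapped, since MG replicate 2 was below A1G replicate 2, and the GC mice were above all flown mice.

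**Figure D3:**
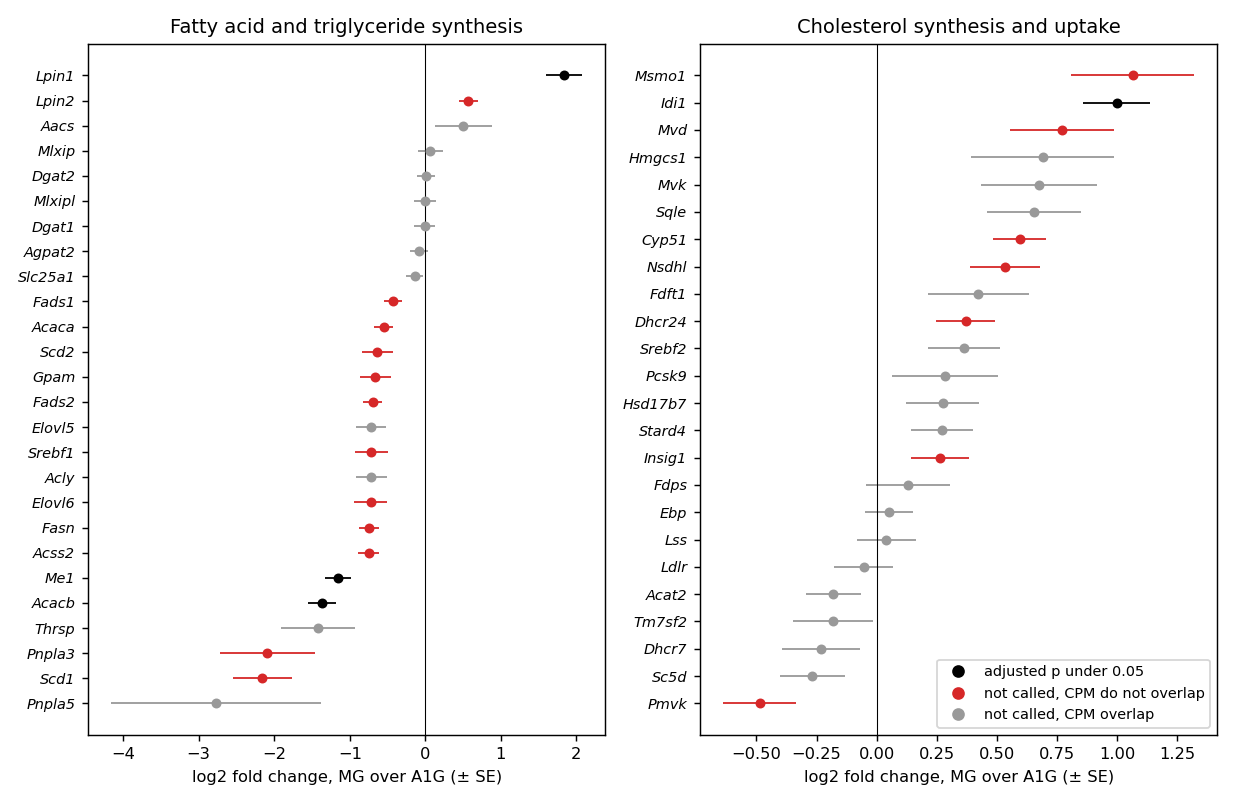
Log2 fold change of MG over A1G (x axis, bars ± SE) for measured genes of fatty acid and triglyceride synthesis (left) and of cholesterol synthesis and uptake (right, 1 gene not shown), black where the adjusted p was under 0.05 and red where the CPM of the groups did not overlap without a call. Of the left list 5 of 26 genes lie above 0, whereas most genes at right do.

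Genes that glucocorticoids raise were higher in MG mice than in A1G mice. Of 21 measured, *Lpin1* rose, 13 were nominally higher and 0 nominally lower, 13 did not overlap, all higher, and DESeq2 called 7. The median log2 fold change was 0.59 (0.65 without A1G replicate 1). Set relative to the A1G mean, the mean log2 CPM of the list was 0.65, 0.64 and 0.88 in MG mice. It was 0.65, 0.79 and 0.10 in GC mice, which all lay above the A1G mice, so that A1G was the low group. *Errfi1*, an inhibitor of the EGF receptor, measured 441, 634 and 682 CPM in A1G and 1119.9, 1177 and 1211 CPM in MG mice (1.00 ± 0.18, adjusted p = 0.0648). *Per1*, a clock gene that glucocorticoids also induce, measured 26.4, 15.7 and 11.7 CPM in A1G and 46.8, 44.7 and 37.5 CPM in MG mice (1.26 ± 0.27, adjusted p = 0.112). No A1G mouse reached the lowest MG mouse in either gene, and *Per1* passed without A1G replicate 1 (1.65, adjusted p = 0.0191). *Slc38a2*, an amino acid transporter, had 0.58 ± 0.12 (adjusted p = 0.0960), and *Lcn2*, lipocalin 2, had 1.90 ± 0.55 (adjusted p = 0.263) with 37 to 102 counts in A1G mice.

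Fasting genes were less uniform. Of 27 measured genes of gluconeogenesis and fasting, none was called by edgeR, 5 were nominally higher and 0 nominally lower, DESeq2 called 1, and the median was 0.12, and about 0 without A1G replicate 1. Relative to the A1G mean, the mean log2 CPM of the list was 0.22, 0.29 and 0.44 in MG mice. GC mice were at a like level, with 0.27, 0.31 and 0.36. *Pck1*, the first enzyme of gluconeogenesis, measured 372, 617 and 775 CPM in A1G and 1208, 1280.0 and 2931 CPM in MG mice (1.62 ± 0.33, adjusted p = 0.0893). In counts not scaled for depth, *Pck1* had 29444, 27414 and 22497 in GC mice. The A1G mice had 8306, 12270 and 19364 such counts and the MG mice 20918, 26135 and 39992, so that A1G was the low group. *Igfbp1*, a binding protein of IGF-1 that insulin suppresses, measured 7.76, 10.3 and 21.3 CPM in A1G and 53.9, 24.6 and 108 CPM in MG mice (2.23 ± 0.48, adjusted p = 0.109). MG replicate 3 was the highest of all mice in both, and without it the log2 fold changes were 1.08 (adjusted p = 0.155) and 1.57 (adjusted p = 0.197). Of the 21 measured clock genes, 3 were nominally higher and 0 nominally lower, namely *Per1*, *Nr1d2* (0.72 ± 0.17, adjusted p = 0.185) and *Nfil3* (0.58 ± 0.17, adjusted p = 0.277). The core clock gene *Arntl* had 0.17 ± 0.12 (adjusted p = 0.761), with 22.6, 25.5 and 26.8 CPM in A1G and 29.3, 26.8 and 28.5 CPM in MG mice, and the median of the clock list was -0.02.

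Several genes of the female liver were higher and several of the male liver lower in the MG mice, which were males. The filter on low counts was passed by 22 of 34 female-biased genes. A gene that is low in A1G and GC mice could pass only through the MG mice, so what follows describes those that passed and supports no direction for the list. Of these, *Prlr* and *Cyp2c68* rose, 14 were nominally higher and 2 nominally lower, DESeq2 called 7 higher and 0 lower, and the median log2 fold change was 1.11 (1.22 without A1G replicate 1). *Cyp2c69*, another P450 of the chromosome 19 cluster, measured 16.0, 6.08 and 9.36 CPM in A1G and 31.4, 128 and 90.9 CPM in MG mice (2.99 ± 0.59, adjusted p = 0.0818). The MG mice differed widely from each other, with replicate 2 the highest, but all were above the A1G mice. *Sult1e1*, the estrogen sulfotransferase, is one of the genes at low levels outside MG, with 0.448, 0.151 and 0.320 CPM in A1G and 2.14, 3.67 and 2.93 CPM in MG mice and no more than 10 counts in any A1G mouse.

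Of 45 measured male-biased genes none was called by edgeR, 17 were nominally lower and 2 nominally higher, DESeq2 called 3 lower and 1 higher, and the median was -0.44 (-0.60 without A1G replicate 1). *Elovl3*, an elongase of very long fatty acids, measured 123, 359 and 278 CPM in A1G and 42.2, 48.2 and 111 CPM in MG mice (-1.92 ± 0.41, adjusted p = 0.104). *Cyp4a12a*, a fatty acid hydroxylase, measured 269.8, 343 and 307 CPM in A1G and 162, 179 and 162 CPM in MG mice (-0.87 ± 0.20, adjusted p = 0.137). In both genes MG mice were below all A1G mice, and *Elovl3* passed without A1G replicate 1 (-2.25, adjusted p = 0.0218). *Cyp4a12a* shares reads with its near copy *Cyp4a12b* (-0.88 ± 0.22, adjusted p = 0.203). *Egfr*, the EGF receptor, went the other way, with 217, 238 and 263 CPM in A1G and 561, 671 and 282 CPM in MG mice (1.08 ± 0.26, adjusted p = 0.182). Averaged over the female-biased genes and set relative to the A1G mean, log2 CPM was 0.31, -0.44 and 0.13 in A1G, 0.86, 0.92 and 1.25 in MG and -0.91, -0.68 and -1.47 in GC mice, and that of the male-biased genes -0.40, 0.27 and 0.13, -0.69, -0.38 and -0.61 and 1.40, 1.13 and 0.94. For the male-biased genes the A1G mean lay between the GC and the MG mean, though A1G replicate 1 was within the range of MG mice. No order of the groups is read from the female-biased genes, since the filter can set it in part.

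In growth hormone and prolactin signalling, *Prlr* rose among 20 measured genes, 6 were nominally higher and 0 nominally lower, and the median was 0.10, but -0.02 without A1G replicate 1. *Igf1*, the insulin-like growth factor that growth hormone induces, measured 406, 386 and 438 CPM in A1G and 695, 609 and 545 CPM in MG mice (0.59 ± 0.12, adjusted p = 0.102). Its plasma carrier subunit *Igfals* had 0.44 ± 0.12 (adjusted p = 0.221). Each MG mouse was above each A1G mouse in both genes.

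Plasma proteins of the acute phase were higher in MG mice. Of 34 measured, *Lbp* rose, 18 were nominally higher and 0 nominally lower, 19 did not overlap, all higher, and DESeq2 called 15 higher and 0 lower. The median log2 fold change was 0.40 (0.35 without A1G replicate 1). *Apcs*, serum amyloid P, measured 48.7, 41.0 and 49.7 CPM in A1G and 87.9, 76.0 and 103 CPM in MG mice (0.94 ± 0.16, adjusted p = 0.0648). *Serpina3m*, a protease inhibitor, measured 349.8, 419.9 and 452 CPM in A1G and 694, 644 and 665 CPM in MG mice (0.71 ± 0.12, adjusted p = 0.0648). *Agt*, angiotensinogen, measured 476, 472 and 463 CPM in A1G and 615, 798 and 775 CPM in MG mice (0.63 ± 0.12, adjusted p = 0.0789). These 3 genes were modestly and evenly higher in the MG mice, with no overlap, and *Serpina3m* passed without A1G replicate 1 (0.61, adjusted p = 0.0451). *Crp*, C-reactive protein, had 0.49 ± 0.13 (adjusted p = 0.220) and *Itih3* had 0.50 ± 0.12 (adjusted p = 0.174). The 11 neutrophil markers, 2 of them with no count in any flown mouse, summed to 1.32 to 4.18 CPM per mouse.

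Chaperones of the endoplasmic reticulum were in many cases slightly higher in MG mice, though the groups overlapped over the whole list. Of 32 measured chaperones and genes of the unfolded protein response, none was called by edgeR, 16 were nominally higher and 1 nominally lower, DESeq2 called 3 higher and 0 lower, and the median was 0.37 (0.45 without A1G replicate 1). The mean log2 CPM of the list, relative to the A1G mean, was 0.26, -0.23 and -0.03 in A1G and 0.45, 0.57 and 0.16 in MG mice, so that A1G replicate 1 was above MG replicate 3. *Calr*, calreticulin, measured 846, 760.4 and 961 CPM in A1G and 1113, 1231 and 1260.4 CPM in MG mice (0.49 ± 0.12, adjusted p = 0.19). *Pdia4*, a disulfide isomerase, measured 521, 311 and 396 CPM in A1G and 648, 806 and 579.9 CPM in MG mice (0.73 ± 0.18, adjusted p = 0.201). A1G replicate 2 was the lowest of the flown mice in both, and without A1G replicate 1 *Pdia4* passed (0.94, adjusted p = 0.0411). *Hsp90b1*, the GRP94 chaperone, had 0.58 ± 0.17 (adjusted p = 0.286) and *Dnajb11*, a co-chaperone of BiP, 0.49 ± 0.12 (adjusted p = 0.185). Cytosolic heat shock proteins did not share this direction, with a median of -0.15 over 18 measured genes, 0 nominally higher and 3 nominally lower, and 0.03 without A1G replicate 1.

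Genes that make and use S-adenosylmethionine were somewhat higher in MG mice. The study itself chose these genes and the glutathione genes below on the same samples, so here too their direction is not independent evidence. Of 27 measured genes of the methionine cycle and transsulfuration, none was called by edgeR, 8 were nominally higher and 0 nominally lower, DESeq2 called 3 higher, and the median was 0.16 (0.08 without A1G replicate 1). *Mat1a*, the liver's methionine adenosyltransferase, measured 3097, 3049 and 2612 CPM in A1G and 4415, 4754 and 4495 CPM in MG mice (0.64 ± 0.12, adjusted p = 0.0648). *Cdo1*, which oxidizes cysteine to cysteine sulfinic acid on the way to taurine, measured 813, 1203 and 1027 CPM in A1G and 1628, 1494 and 1614 CPM in MG mice (0.64 ± 0.15, adjusted p = 0.172). The groups did not overlap in either, and *Mat1a* was nearly the same in the 3 MG mice. *Mat1a* passed without A1G replicate 1 (log2 fold change 0.69, adjusted p = 0.0361), whereas *Cdo1* did not (0.50, adjusted p = 0.163).

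Other genes around methionine and cysteine were further from the threshold. *Nnmt*, which methylates nicotinamide, had 0.83 ± 0.20 (adjusted p = 0.185), *Gnmt*, which methylates glycine, 0.47 ± 0.17 (adjusted p = 0.394) and *Dmgdh*, which oxidizes dimethylglycine, 0.50 ± 0.15 (adjusted p = 0.275). *Cth*, the cystathionine lyase that releases cysteine, measured 225, 340.2 and 270.2 CPM in A1G and 319, 474 and 346 CPM in MG mice (0.45 ± 0.18, adjusted p = 0.472). Its groups overlapped, since A1G replicate 2 was above MG replicate 1. Of 19 measured genes of glutathione synthesis and recycling, none was called by edgeR, 1 was nominally higher and 1 nominally lower, and DESeq2 called none. *Gclc*, the catalytic subunit of the first enzyme of glutathione synthesis, measured 543, 332 and 306 CPM in A1G and 320.4, 239.8 and 355 CPM in MG mice (-0.37 ± 0.24, adjusted p = 0.736, and -0.06 without A1G replicate 1).

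Glutathione S-transferases and other NRF2 targets were lower in MG mice on average, with medians close to 0 when A1G replicate 1 was left out. Of 22 measured glutathione S-transferases none was called by edgeR, 8 were nominally lower and 0 nominally higher, and DESeq2 called 1 lower. The median log2 fold change was -0.32, and -0.06 without A1G replicate 1. Relative to the A1G mean, the mean log2 CPM of the family was 0.62, -0.20 and -0.43 in A1G mice and -0.38, -0.57 and -0.53 in MG mice. A1G replicate 1 was thus the high mouse, and A1G replicate 3 lay within the range of MG mice. GC mice had -0.05, -0.23 and -0.70, so that the MG mice lay within the range of GC mice.

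Members of the family differed in how far this holds. *Gstm3* measured 90.5, 24.7 and 15.4 CPM in A1G and 18.8, 9.45 and 13.4 CPM in MG mice (-1.65 ± 0.55, adjusted p = 0.321, and -0.53 without A1G replicate 1). *Gsta4*, which conjugates products of lipid peroxidation, measured 77.1, 33.0 and 25.4 CPM in A1G and 28.6, 21.6 and 18.7 CPM in MG mice (-0.97 ± 0.34, adjusted p = 0.355, and -0.34 without A1G replicate 1). In both the other A1G mice were close to the MG mice. *Gstp1*, a pi-class enzyme more abundant in males, measured 1576, 855 and 671 CPM in A1G and 484, 455 and 305 CPM in MG mice (-1.32 ± 0.27, adjusted p = 0.0912, and -0.88 without A1G replicate 1, adjusted p = 0.0741). *Gstm6* measured 50.5, 52.7 and 44.8 CPM in A1G and 34.4, 31.9 and 32.7 CPM in MG mice (-0.58 ± 0.15, adjusted p = 0.221, and -0.56 without A1G replicate 1). For these 2 genes every A1G mouse was above every MG mouse. Genes of this family are close copies, so reads can be split among them.

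Of 32 measured NRF2 targets, *Me1* fell, 8 were nominally lower and 0 nominally higher, and DESeq2 called 3 lower. The median was -0.37, and -0.07 without A1G replicate 1. Relative to the A1G mean, the mean log2 CPM of the list was 0.65, -0.32 and -0.33 in A1G mice. It was -0.35, -0.55 and -0.56 in MG and -0.26, -0.47 and -0.68 in GC mice. The MG mice thus lay within the range of GC mice here too. *Ephx1*, the microsomal epoxide hydrolase, measured 728, 229 and 281 CPM in A1G and 217, 166 and 206 CPM in MG mice (-1.07 ± 0.35, adjusted p = 0.317, and -0.38 without A1G replicate 1). A1G replicate 1 was far above the rest, and the other A1G mice were near the MG mice.

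Targets of PPAR-alpha, the fatty acid sensor that drives peroxisomal oxidation, had the same mouse on top. Of 35 measured none was called by edgeR, 8 were nominally lower and 2 nominally higher, DESeq2 called 3 lower, and the median was -0.14, and about 0 without A1G replicate 1. *Ehhadh*, the peroxisomal bifunctional enzyme, measured 3303, 411 and 543 CPM in A1G and 335, 209 and 226 CPM in MG mice (-2.47 ± 0.62, adjusted p = 0.200, and -0.89 without A1G replicate 1). *Acaa1b*, a peroxisomal thiolase, measured 3407, 1715 and 1367 CPM in A1G and 702, 526 and 630.2 CPM in MG mice (-1.80 ± 0.30, adjusted p = 0.0648, and -1.32 without A1G replicate 1, adjusted p = 0.0209). The remaining A1G mice were still well above the MG mice for *Acaa1b*. *Fabp1*, the liver fatty acid binding protein, measured 3073, 2536 and 2154 CPM in A1G and 1253, 1029.8 and 1529 CPM in MG mice (-1.03 ± 0.21, adjusted p = 0.0850).

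**Figure D4:**
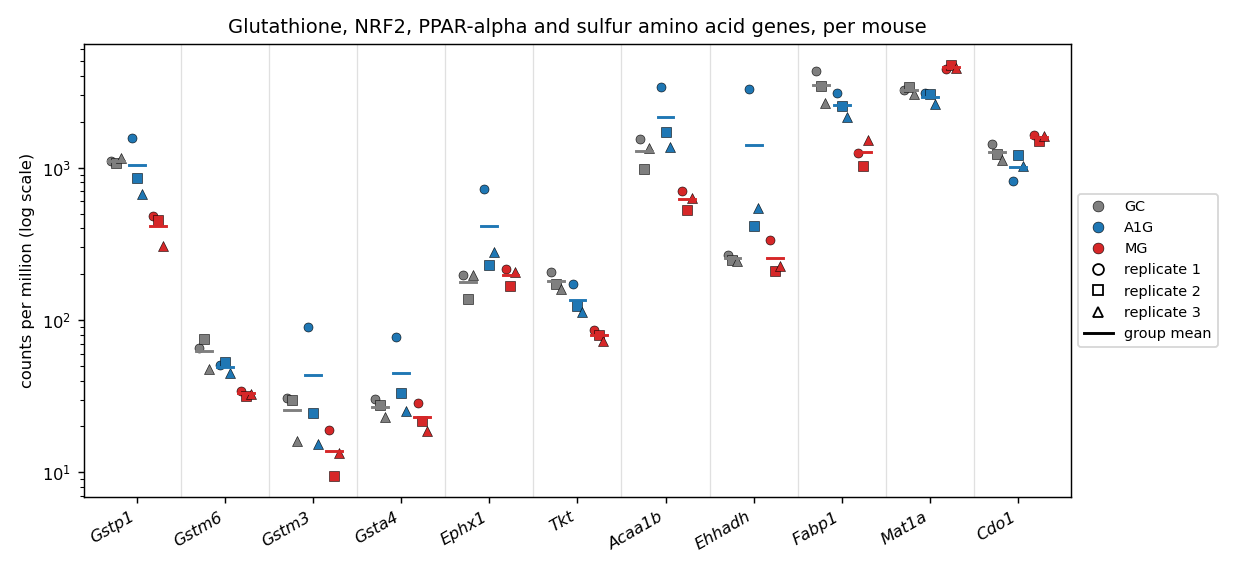
CPM on a log axis for genes of glutathione use, NRF2, PPAR-alpha and sulfur amino acid metabolism, with 1 point per mouse and a line at each group mean. The circle of A1G replicate 1 is the highest A1G point for *Gstm3*, *Gsta4*, *Ephx1* and *Ehhadh*, whereas *Mat1a* and *Cdo1* are higher in all 3 MG mice.

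**Figure D5:**
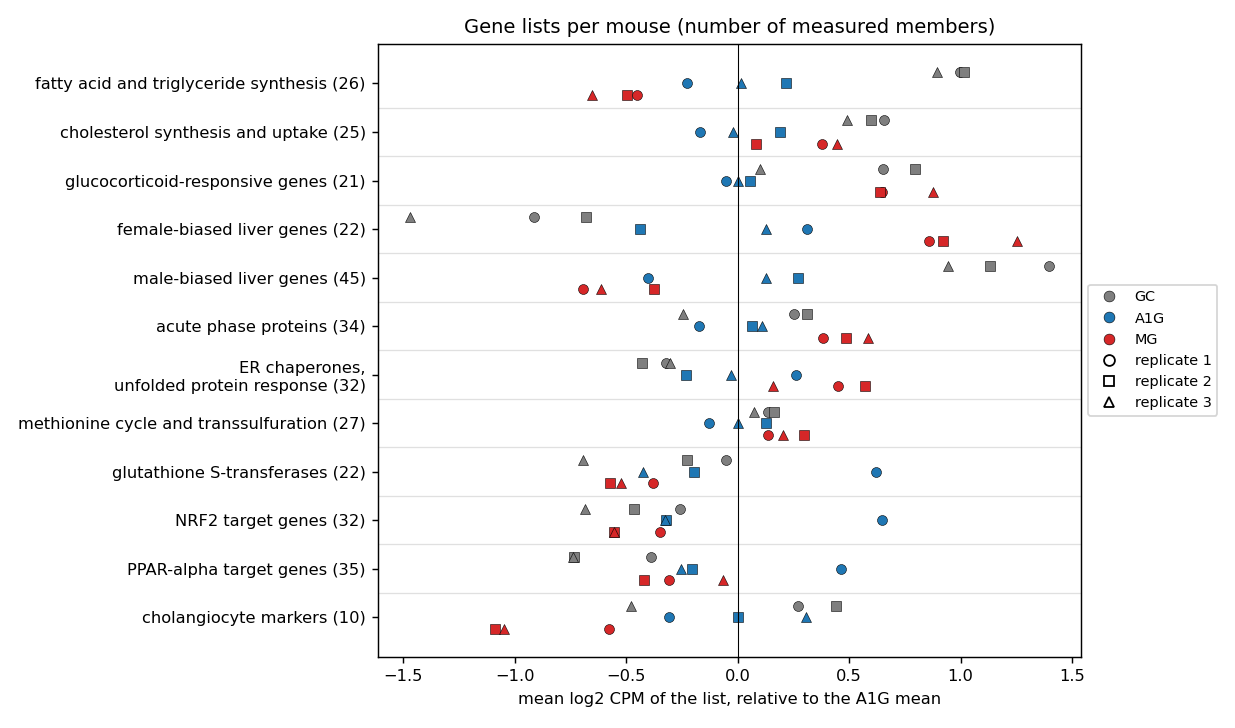
Mean log2 CPM of 12 gene lists per mouse (x axis, relative to the A1G mean, 1 point per mouse), with the number of measured members in parentheses. For glutathione S-transferases, NRF2 targets and PPAR-alpha targets A1G replicate 1 (blue circle) lies at 0.62, 0.65 and 0.46, apart from the other A1G mice. For fatty acid synthesis all MG mice lie to the left, and for glucocorticoid-responsive genes to the right, of all A1G mice. Female-biased genes are only those that passed the filter on low counts, so no order of the groups is read from them.

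Zonation and blood-borne signals of the liver differed in single genes. Among 24 measured pericentral genes, 6 were nominally higher and 3 nominally lower and the median was -0.09. *Cyp1a2*, a P450 of caffeine and arylamine metabolism, measured 263, 309 and 205 CPM in A1G and 154, 144 and 93.4 CPM in MG mice (-0.99 ± 0.22, adjusted p = 0.121). *Cyp2c37*, a P450 of the chromosome 19 cluster, measured 300.2, 266 and 379 CPM in A1G and 516, 583 and 506 CPM in MG mice (0.76 ± 0.14, adjusted p = 0.0648). The 2 genes thus went opposite ways with no overlap in either. *Rnase4* (0.86 ± 0.15, adjusted p = 0.0648) and *Ang*, angiogenin (0.74 ± 0.15, adjusted p = 0.0887), overlap on chromosome 14 on the same strand, so their reads cannot be fully told apart. Among 22 measured hepatokines and growth factors, 9 were nominally higher and 1 nominally lower, with *Ahsg*, fetuin-A, at 0.58 ± 0.14 (adjusted p = 0.173), *Inhbb*, a subunit of activin B, at 1.97 ± 0.53 (adjusted p = 0.234) and *Fst*, the activin binder follistatin, at -1.71 ± 0.53 (adjusted p = 0.294). Without A1G replicate 1 *Inhbb* passed, at 3.02 (adjusted p = 0.0215). *Fst* had few counts (12 to 21 in MG mice), and the list's median was 0.23.

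Markers of cells other than hepatocytes were lower in MG mice in part. The 14 Kupffer cell markers summed to 249, 261 and 395 CPM in A1G and 267, 278 and 288 CPM in MG mice (exact two-sided permutation test, p = 1), and the 14 sinusoidal endothelial markers to 437, 423 and 392 and 440.3, 346 and 357 CPM (p = 0.4, exact). Both sets overlapped between groups. The 11 cholangiocyte markers, of the bile duct lining, summed to 38.7, 53.5 and 68.1 CPM in A1G and 37.4, 31.2 and 33.3 CPM in MG mice (exact p = 0.1, the smallest that 3 mice against 3 allow), and 4 of 10 measured were nominally lower, with *Krt19*, a keratin of duct cells, at -1.70 ± 0.39 (adjusted p = 0.144). In the sum the MG mice were all below the A1G mice, by a narrow margin for A1G replicate 1. *Krt19* had few counts, with 34, 42 and 37 in A1G and 8, 13 and 6 in MG mice. Of the 10 measured markers, 2 had a log2 fold change above 0. The 14 stellate cell and fibroblast markers summed to 318, 394 and 407 CPM in A1G and 356, 342 and 327 CPM in MG mice (exact p = 0.4), while the collagen gene *Col1a1* measured 2.29, 4.52 and 6.40 CPM in A1G and 0.866, 1.08 and 1.32 CPM in MG mice (-2.02 ± 0.38, adjusted p = 0.0649, and -2.34 without A1G replicate 1, adjusted p = 0.0164). In a homogenate fewer cells of a type and less RNA per cell cannot be told apart, and the part of these cells in the results above was not tested.

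Among the other lists of liver functions edgeR called no member. Of 29 measured p53 targets and cell cycle genes, 5 were nominally lower and 1 nominally higher (median -0.15). *Mcm2*, a subunit of the replicative helicase, measured 3.72, 2.61 and 3.32 CPM in A1G and 0.635, 0.539 and 1.47 CPM in MG mice (-1.91 ± 0.39, adjusted p = 0.0887), and *Mcm4*, another subunit, had -1.12 ± 0.26 (adjusted p = 0.150). Levels were low in all mice, with no overlap between the groups. Of 34 measured targets of the drug sensors CAR and PXR, 6 were nominally higher and 5 nominally lower (median -0.09, and 0.07 without A1G replicate 1), and *Ces2c*, a carboxylesterase, measured 68.6, 51.1 and 47.1 CPM in A1G and 17.8, 23.9 and 18.1 CPM in MG mice (-1.48 ± 0.29, adjusted p = 0.0789).

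Bile acid and lipoprotein genes differed by small amounts. Of 27 measured genes of bile acid synthesis and transport, 6 were nominally higher and 0 nominally lower (median 0.09), led by *Nr0b2*, the repressor SHP, at 24.4, 18.3 and 8.76 CPM in A1G and 31.8, 35.4 and 32.8 CPM in MG mice (0.96 ± 0.30, adjusted p = 0.298). Of 32 measured genes of lipoproteins and lipid droplets, 4 were nominally higher and 5 nominally lower (median 0.01). *Apoa5*, an apolipoprotein that lowers plasma triglycerides, measured 1008, 1588 and 1538 CPM in A1G and 2089, 2212 and 1992 CPM in MG mice (0.61 ± 0.16, adjusted p = 0.221). Each MG mouse was above each A1G mouse in both genes. Few members were nominally different in the urea cycle and amino acid breakdown (2 of 36 higher, 0 lower) and among interferon-stimulated genes (1 and 1 of 35). The same held for peroxiredoxins and other peroxide and superoxide enzymes (1 and 0 of 17). Of all genes, 4.37% were nominally higher and 4.61% lower. Glycolysis, fructose and glycogen had 1 nominally higher and 3 lower of 24, and for 6 the MG mice all lay below the A1G mice. Metal handling had 4 higher and 2 lower of 21. ATF4 targets had 4 higher and 1 lower of 16, with a median of 0.23 (0.32 without A1G replicate 1).

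Some genes of other kinds were as close to the threshold. *Ubb*, a polyubiquitin gene, measured 427, 358 and 386 CPM in A1G and 605, 657 and 713 CPM in MG mice (0.75 ± 0.13, adjusted p = 0.0648). *Abcg2*, a transporter of urate and drugs, measured 108, 73.1 and 85.6 CPM in A1G and 51.9, 45.6 and 40.0 CPM in MG mice (-0.96 ± 0.16, adjusted p = 0.0648). Every MG mouse was on 1 side of every A1G mouse in both. *Fzd7*, a Wnt receptor, had -0.82 ± 0.14 and *Cdh1*, E-cadherin, -1.10 ± 0.20 (adjusted p = 0.0648 and 0.0648), and both passed without A1G replicate 1, with adjusted p of 0.0230 and 0.0111, as did *Ubb* (0.82, adjusted p = 0.0304).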

How the data were processed

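Liver RNA of single mice was sequenced from stranded poly(A) libraries on a NovaSeq. Per the labels and the study's methods, the authors trimmed reads with fastp 0.19.4 and estimated transcript abundance with Salmon 0.9.1 on GRCm38, and deposited estimated counts per gene and TPM for 9 libraries. Columns of the authors' own fold changes and p-values were not used. Of 34866 genes, 34582 had a name in the reference table. The estimated counts (17.1% of values were not whole) were rounded, filtered with filterByExpr (minimum count 10, leaving 13193 genes with 99.94% of counts), scaled by TMM and tested with edgeR 4.0.16 (R 4.3.3) by the quasi-likelihood test, with 1 coefficient per group over all 9 libraries and Benjamini-Hochberg adjustment over all genes tested. CPM are on the TMM scale. A log2 fold change is given ± SE, and exact permutation tests are two-sided.

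DESeq2 1.42.0 p-values were adjusted over the same 13193 genes. The TPM as deposited were tested with limma 3.58.1 on log2(TPM + 1) or log2(TPM + 0.1) only as alternatives. Other scalings, filters, a replicate block, robust fitting and leaving out each library were also tried. On simulated counts for MG vs. A1G over 12986 genes, edgeR on all 9 libraries found 56 of 99 genes changed 2-fold and 81 of 98 changed 4-fold, with 9 false among 146 calls. On the 6 flown libraries alone it found 57 of 99 and 82 of 95, with 16 false among 155 calls. The real counts gave 0 calls there. The simulated counts held no mouse apart from its group, so these rates need not hold for the real counts. Depth was 13189515 to 23738049 counts per flown library, and counting error is largest for genes of few counts. Genes were named by a fixed rule: the called genes, the 15 of smallest p in each direction among genes with a mean count of at least 50 in flown mice and no overlap between groups, up to 6 members per list by p, and the genes the study names. The comparison, the lists and the genes were chosen with earlier results of these data known. Positions come from GENCODE M21 and start regions from RefSeq, both on GRCm38.p6. All columns were matched to a sample by name. Some genes are not reported here.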

Additional observations from a re-analysis of the deposited data

How the results depend on the processing

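RLE or upper-quartile scaling, a filter of 10 counts in every library and leaving out mitochondrial and Mup genes all gave 10 calls, 7 higher and 3 lower. Scaling by library size only gave 1 (1 higher, 0 lower). No filter on low counts gave 188 (85 higher, 103 lower), DESeq2 172 on 6 libraries (92 and 80) and 171 on 9 (93 and 78), and robust fitting 34 (15 and 19). edgeR on the 6 flown libraries gave 0 calls (0 higher, 0 lower, 1189 genes at an unadjusted p under 0.05), and limma on TPM gave 0 in each of 3 settings (862, 813 and 1439). The share of higher calls was 70% here, but 45.2% with no filter, 53.5% and 54.4% with DESeq2, 44.1% with robust fitting and 43.2% with the replicate block.

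Leaving out 1 library gave 0 to 48 calls, 0 to 17 higher and 0 to 31 lower. With the replicate number as a block there were 44 calls, 19 higher and 25 lower, all 10 genes among them. Same-numbered A1G and MG mice had r of 0.114, 0.0586 and 0.0973 in their deviations from the group means. Pairs of unlike number had r of -0.0882 to 0.00593, so each mouse correlated best with its own number. The labels do not say what the number stands for, and a shared batch was not tested. No gene named in the text reversed its direction under any alternative: over the genes followed and all alternatives the call was the same in 1825 cases, gained in 233 and lost in 115. Depth limits genes of few counts, such as *Cd276* and *Sult1e1*, and the smallest exact p of 3 mice against 3 is 0.1.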
